A study of Mus musculus with 6 samples.

Results

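The genes described here encode proteins of the cytosolic ribosome, and their mRNA levels were read in hindlimb muscle of newborn mice. Members were the protein-coding lines of the deposited expression table whose symbol is Rpl or Rps with a number (with or without a final a or x), together with Rplp0, Rplp1, Rplp2 and Rpsa and without Rpl3. This gave 74 genes of 39010 lines, 44 of the large subunit and 30 of the small subunit, and all 74 passed the filter on low values. The study sequenced total RNA of hindlimb skeletal muscle on day 2 (P2), day 7 (P7) and day 14 (P14) after birth, with 2 libraries per stage and 6 in all, which its design text calls biological replicates. The mice were wild type, with a strain background that the labels give as mixed, in all 3 stages, and the design text states that the question was how muscle grows after birth. Neither the number of animals behind a library nor the animals' sex is given in the labels, so a p-value here speaks for the spread among these libraries alone. Levels are in FPKM, in which the fragments of a gene are divided by transcript length and library size, and the sequencing depth is unknown.

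The ribosome is built from a small subunit, which reads the mRNA, and a large subunit, which joins amino acids, and each subunit holds 1 copy of most of its proteins. The genes for these proteins are among the most highly expressed in any cell and are known to be regulated together. Their mRNAs typically begin with a cytosine and a run of pyrimidines, the terminal oligopyrimidine tract, through which the kinase mTORC1 and the protein LARP1 set how well they are translated. In growing skeletal muscle, ribosome number is held to limit how much protein a fibre can make.

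The first bases of 9 members are printed, with and without a pyrimidine run at the annotated start. Starts in muscle were not measured here, so a missing run at that base does not show that an mRNA lacks one. Sequences are from RefSeq on GRCm38.p6 and run from 10 bases before to 20 bases after the annotated transcription start, with the pyrimidine run that begins with a C at the start in capitals. Rpl38 (chr11:114668570-114668599, plus strand), Rps6 (chr4:86857348-86857377, minus strand), Rpl35 (chr2:39005112-39005141, minus strand), Rps10 (chr17:27635225-27635254, minus strand), Rplp2 (chr7:141447641-141447670, plus strand), Rpl28 (chr7:4792955-4792984, plus strand) and Rps18 (chr17:33955646-33955675, minus strand) begin with such a run at the annotated base. Rps16 (chr7:28350679-28350708, plus strand) and Rps19 (chr7:24884582-24884611, plus strand, the first of its 3 annotated starts) do not at these starts, and are printed because they were called lower relative to the other members, as described further on.
Rpl38: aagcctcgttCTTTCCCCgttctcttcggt
Rps6: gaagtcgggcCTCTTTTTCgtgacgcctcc
Rpl35: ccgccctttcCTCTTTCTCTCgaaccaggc
Rps10: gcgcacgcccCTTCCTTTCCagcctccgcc
Rplp2: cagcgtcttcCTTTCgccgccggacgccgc
Rpl28: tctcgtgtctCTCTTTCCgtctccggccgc
Rps18: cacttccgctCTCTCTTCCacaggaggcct
Rps16: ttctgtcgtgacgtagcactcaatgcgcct
Rps19: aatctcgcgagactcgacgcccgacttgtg

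RefSeq gave a start window for 54 of the members, and 13 of them (24.1%) had a C at the annotated start followed by at least 4 pyrimidines, against 3.1% of the 8917 tested protein-coding genes with a window. When the run was allowed to begin within 5 bases of the start on either side, 27 members (50%) had one, against 24.0% of those genes. In the whole window of 250 bases before and 50 after the start, 3 other motifs were searched. CTTCCG, read on both strands, stood in 38 members (70.4%), against 34.8% of the genes. TATAAA, on both strands, stood in 6 members (11.1%), against 9.1%. The last, a palindrome of 10 bases whose letters are not printed here, also stood in 6 members (11.1%), against 1.2%. A gene counted if any of its windows held the motif, with a mean of 1.19 windows per member and 1.29 per gene. These are matches of letters and not measured binding sites.

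A further shared feature is the small nucleolar RNA genes within these genes, whose products guide the modification of ribosomal RNA. In GENCODE M21 annotation, 27 of 73 members (37.0%) contained at least 1 snoRNA gene on the same strand, 53 snoRNA genes in all, against 1.7% of 11953 tested protein-coding genes.

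The label of 1 member went against its annotation. The line labelled Rpl24 (ENSMUSG00000022601) spans bases 55973883 to 56008913 of chromosome 16 on GRCm38, and GENCODE M21 gives that identifier the symbol Zbtb11, a zinc finger gene. It had 4.12 and 4.27 FPKM at P2, 3.81 and 3.94 at P7 and 4.77 and 4.75 at P14, below every other member in every library. The other 73 members carry the same symbol in both. The line was kept as the rule has it and was called in no comparison.

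Ribosomal protein mRNA was abundant at all 3 stages and lowest at P7 in the deposited values. The median member had 147.2 and 181.2 FPKM in the P2 libraries, 110.1 and 131.6 FPKM in the P7 libraries and 185.4 and 143.7 FPKM in the P14 libraries. The 2 P7 medians lie below the other 4, while the P2 and P14 medians overlap. Between 154 and 231 of the 13566 tested genes were above the median member in a library. Summed over the 74 genes, the level was 12420 and 14750 FPKM at P2, 9004 and 10470 FPKM at P7, and 15310 and 12000 FPKM at P14. As a share of the summed FPKM of the tested protein-coding genes, that was 7.21% and 7.11% at P2, 5.42% and 5.93% at P7, and 5.71% and 5.23% at P14. On this scale the P14 libraries stand with the P7 libraries and below both P2 libraries. In bulk tissue, fewer cells of a type and less RNA per cell cannot be told apart.

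**Figure D1:**
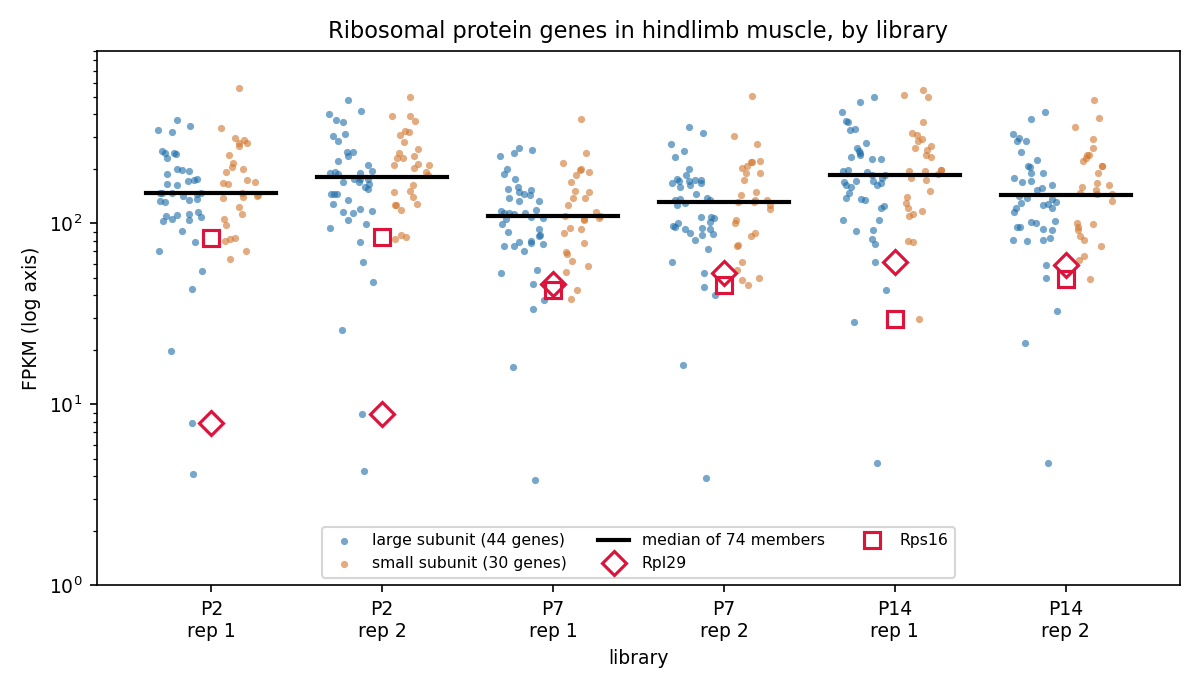
FPKM (log axis) of the 74 ribosomal protein genes in each of the 6 libraries, with large subunit genes (blue) left of small subunit genes (orange), black bars for the median member and red symbols for Rpl29 and Rps16. The medians of the P7 libraries are the lowest, at 110.1 and 131.6 FPKM, Rpl29 stands far below the median at P2, and Rps16 is lower at P7 and P14 than at P2.

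Members kept nearly the same order of levels in every library. Of the 74 genes, 69 had a mean over the 6 libraries between 50 and 400 FPKM, and the Spearman correlation of members between 2 libraries was 0.905 to 0.984 over the 15 pairs of libraries, a description across genes. Rps24, a small subunit protein, was the highest with 557.3 and 498.8 FPKM at P2, 378.3 and 508.0 at P7, and 549.4 and 482.3 at P14. Among the next by mean were Rpl41 (383.1 FPKM), the shortest ribosomal protein, Rpl26 (374.5 FPKM) and Rps15a (350.7 FPKM). The lowest besides the line labelled Rpl24 were Rpl7a (21.5 FPKM), Rpl29 (39.4 FPKM), Rpl15 (42.7 FPKM) and Rpl27 (51.7 FPKM). The median of the members' means was 145 FPKM for the large subunit and 162 FPKM for the small subunit.

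The 2 libraries of a stage differed in nearly all members in 1 direction. P2 replicate 2 was above P2 replicate 1 in 65 of 74 members, as in 80.2% of all tested genes, and P14 replicate 1 was above P14 replicate 2 in 72 of 74, as in 69.5%. P7 replicate 2 was above P7 replicate 1 in 67 of 74 members, against 51.9% of all tested genes. Members therefore shift together between libraries of 1 stage, by 0.22 on the log2 scale (SD of the library medians within a stage).

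Most members were lower at P7 than at P2, but the single-gene tests called almost none of them. The change was below 0 in 72 of 74 members, with a median of -0.50 on the log2(FPKM + 1) scale, against -0.27 over all tested genes. It was -0.46 for the 44 large subunit genes and -0.58 for the 30 small subunit genes, and the difference between subunits was not tested. Both P7 libraries were below both P2 libraries in 65 members (53.9% of all tested genes) and above them in 1 (6.42%). At a limma adjusted p below 0.05, 1 member was called higher (0.111% of all tested genes) and 0 were called lower (1.18% of all tested genes). At an unadjusted limma p below 0.05, 24 members were lower (25.6% of all tested genes) and 1 was higher (1.84%). In the authors' deposited table for this comparison, 4 members were lower at p below 0.05 (2.66% of its lines) and 2 were higher (2.26%). The authors' p-values are read as unadjusted throughout, which their headers do not state. Shares of the authors' lines, here and below, are over all 39170 lines and not over the 13566 tested genes.

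Rps16, whose protein sits near the tRNA that carries the growing chain, had the most negative change. It had 42.7 and 45.8 FPKM at P7, against 83.4 and 84.3 FPKM at P2 (log2 change -0.91 ± 0.26 SE, limma adjusted p = 0.104). Rps19, mutated in human Diamond-Blackfan anaemia, had 109.9 and 104.9 FPKM at P7, against 168.0 and 210.5 FPKM at P2 (-0.80 ± 0.25 SE, limma adjusted p = 0.121). The groups do not overlap in either gene, and neither passed the test. Further negative changes included -0.79 for Rps18, -0.77 for Rps13 and -0.71 each for Rps9, Rpl18 and Rpl10, among the last proteins to join the large subunit. The limma adjusted p values of these 5 genes were 0.117 to 0.156. With its 3 sequence copies summed in, the change of Rps18 was -0.47 (limma adjusted p = 0.36). Only Rpl34 (0.20, limma adjusted p = 0.673) and Rpl29 had changes above 0.

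Between P7 and P14 the members turned the other way as deposited, a direction that quantile and protein-coding scaling reversed for the median (-0.16 and -0.04). The change at P14 against P7 was above 0 in 71 of 74 members, with a median of 0.49, against 0.23 over all tested genes. Both P14 libraries were above both P7 libraries in 59 members (53.8% of all tested genes) and below them in 0 (15.3%). One member was called higher at a limma adjusted p below 0.05 (8.75% of all tested genes) and 0 lower (1.60%), and 21 were higher (27.7%) and 0 lower (5.87%) at an unadjusted limma p below 0.05. The 21 of 74 are close to the share of all genes. The authors' deposited table had 18 members higher at an unadjusted p below 0.05 (5.99% of its lines) and 0 lower (3.59%). Its lines include genes below the filter on low values, so the 5.99% is not a share of tested genes.

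The called gene was Rps2, a small subunit protein at the channel through which the mRNA enters. It had 173.0 and 145.9 FPKM at P14, against 77.8 and 88.8 FPKM at P7 (log2 change 0.93 ± 0.22 SE, limma adjusted p = 0.0448), and the libraries of the stages do not overlap. Its call was lost when any 1 of the 4 libraries compared was left out, with limma adjusted p of 0.0968 to 0.249, and with its 13 sequence copies summed in (0.87, limma adjusted p = 0.052). Rplp0 and Rplp1, which build the stalk that recruits elongation factors, both had a change of 0.80, with limma adjusted p of 0.0740 and 0.0993. Further large values were 0.74 for Rps21, 0.73 for Rps13 and 0.70 for Rps15a, none called. The 3 members with a change below 0 were Rps16 (-0.21), Rpl21 (-0.19) and Rpl15 (-0.05), none called.

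**Figure D2:**
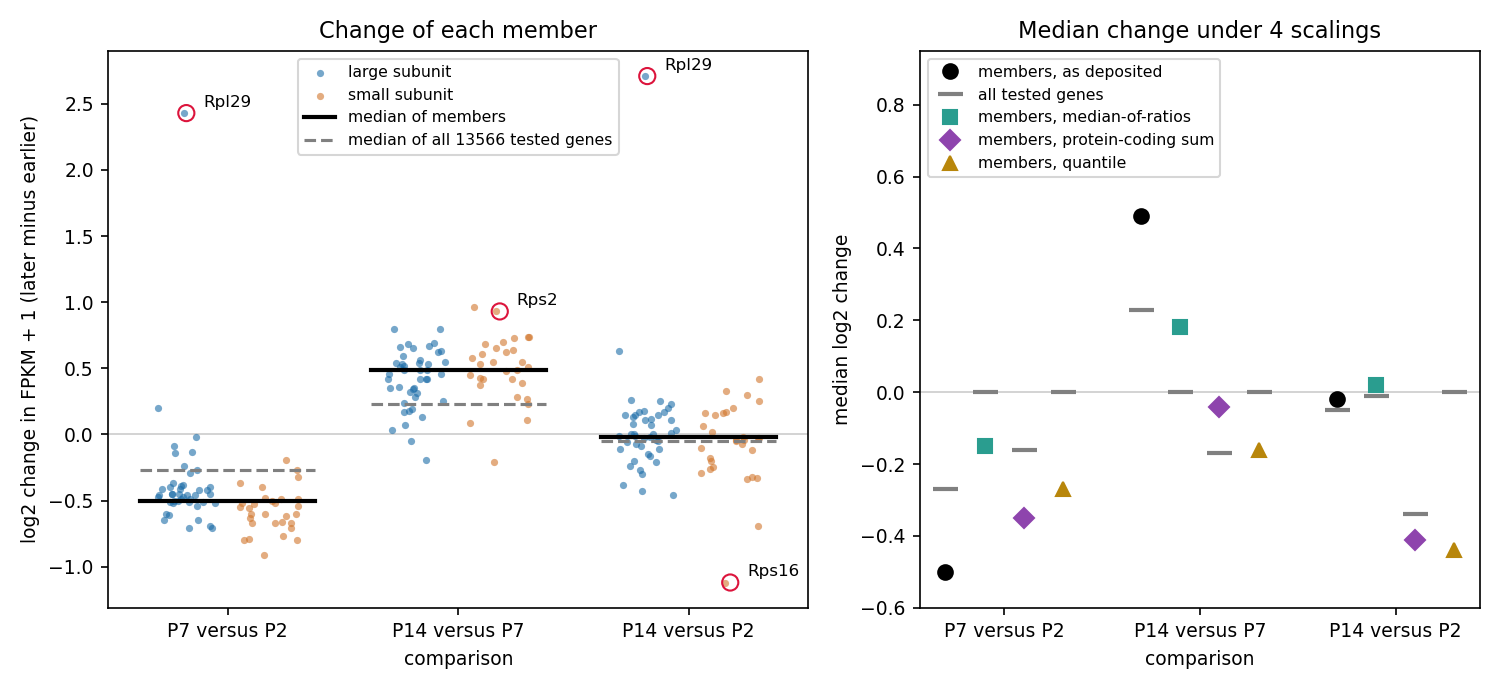
Left, log2 change in FPKM + 1 of each of the 74 members in the 3 comparisons (later minus earlier stage), with the median of the members (black line) and of all 13566 tested genes (dashed line), and called members circled. Right, the median change of the members under 4 scalings, with grey dashes for all tested genes under the same scaling. Members centre on -0.50, 0.49 and -0.02 as deposited, and the median for P14 versus P7 is below 0 under 2 of the scalings.

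The low level at P7 depended on how the libraries were scaled, in size and in whether P7 was lowest at all. The members' median change at P14 against P7 was -0.16 after quantile normalization and -0.04 after protein-coding scaling. Under these 2 scalings the median was thus lowest at P14 and not at P7. Both P7 libraries were below all 4 others in 53 of 74 members as deposited (26.2% of all tested genes), in 16 after median-of-ratios scaling (5.99%) and in 8 after division by the summed protein-coding FPKM (5.64%). The median change at P7 against P2 stayed below that of all tested genes under each of the 4 scalings. The members' median minus that of all genes was -0.23 as deposited, -0.15 after median-of-ratios scaling, -0.19 after protein-coding scaling and -0.27 after quantile normalization. For P14 against P7 the members stood above all genes by 0.26 as deposited, 0.18 after median-of-ratios scaling and 0.13 after protein-coding scaling, and the sign turned to -0.16 after quantile normalization. The authors' own tables carry another scaling between stages. In the authors' deposited table the FPKM of the median member was 2.62 times the mean of its P7 libraries and 2.07 times the mean of its P2 libraries, and the members' median log2 ratio at P7 against P2 was -0.16. The same median in the authors' deposited tables was 0.24 for P14 against P7 and 0.09 for P14 against P2.

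Between the ends of the series, levels were close to each other as deposited. The change at P14 against P2 was above 0 in 32 members and below 0 in 42, with a median of -0.02, against -0.05 over all tested genes. One member, Rpl29, was called higher (11.5% of all tested genes) and 1, Rps16, lower (12.9%), and the call of Rpl29 was lost when its sequence copies were summed in, as given below. Both P14 libraries were above both P2 libraries in 5 members (28.5% of all tested genes) and below them in 11 (35.2%). After quantile normalization 37 members were called lower and after protein-coding scaling 32, where 15.3% and 36.8% of all tested genes were called lower. Members' median changes were then -0.44 and -0.41, against -0.00 and -0.34 over all genes. The authors' deposited table had 3 members higher at an unadjusted p below 0.05, Rpl29 and Rpl34 among them (6.91% of its lines), and 2 lower, Rps16 and Rps19 (5.40%).

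Rps16 was the only member called lower at P14 against P2 as deposited. It had 29.6 and 49.1 FPKM at P14, against 83.4 and 84.3 FPKM at P2 (log2 change -1.12 ± 0.26 SE, limma adjusted p = 0.0231). All 4 later libraries lie below both P2 libraries, and the P14 libraries differ from each other more than the P7 libraries do. Its 3 sequence copies moved with it, and the sum of gene and copies was 34.5 and 58.8 FPKM at P14, against 100.6 and 100.7 FPKM at P2. The call was lost when any library other than P14 replicate 2 was left out, with limma adjusted p of 0.0540 to 0.117, and its log2 change ranged from -1.47, with P14 replicate 2 left out, to -0.76, with P14 replicate 1 left out. Over the 3 stages together, the limma F test called Rps16 (adjusted p = 0.0427) and Rpl29 (adjusted p = 0.00158), 2 of 74 members against 21.1% of all tested genes.

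Rps19 had 140.5 and 96.0 FPKM at P14, against 168.0 and 210.5 FPKM at P2 (-0.69 ± 0.25 SE, limma adjusted p = 0.0901). Further negative changes were -0.46 for Rpl10, -0.43 for Rpl15, -0.38 for Rpl27a, -0.34 for Rps10, -0.33 for Rps23, which lines the decoding site, and -0.32 for Rps9. Values above 0 included 0.63 for Rpl34, 0.33 for Rps2, 0.30 for Rps25, 0.26 for Rpl27 and 0.25 each for Rpl26 and Rps21. None of these passed the test as deposited, and those of Rpl26, Rps21, Rpl27, Rps25 and Rps2 turned below 0 under quantile and protein-coding scaling. With its 5 sequence copies summed in, the change of Rpl34 was 0.03 (limma adjusted p = 0.953).

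To ask which members moved apart from the rest, each library was set relative to its median member. Relative to it, Rps16 changed by -1.12 ± 0.28 SE (log2, limma adjusted p = 0.0147) and Rps19 by -0.69 ± 0.17 SE (limma adjusted p = 0.0142) at P14 against P2, while Rpl29 was higher. That is 2 of 74 members lower (10% of all tested genes) and 1 higher (13.2%). For P7 against P2, Rpl29 alone was called (2.11% of all tested genes higher, 0.339% lower), and for P14 against P7 the test called 0 members (3.54% higher, 6.03% lower). The relative fall of Rps16 lost its call without P14 replicate 1 (-0.58, limma adjusted p = 0.126) and that of Rps19 without P14 replicate 2 (-0.60, limma adjusted p = 0.0945). No other member was told apart from the median member by this test.

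The genes of well-known roles in this paragraph were called in no comparison. The stalk protein gene Rplp2 had 172.4 and 126.3 FPKM at P14, 108.1 and 94.1 FPKM at P7 and 133.9 and 176.5 FPKM at P2. Rps6, whose protein is the classical substrate of S6 kinase, had 80.2 and 62.8 FPKM at P14, against 79.6 and 81.6 FPKM at P2 (log2 change -0.18 ± 0.20 SE, limma adjusted p = 0.527). Rpsa, also known as a laminin receptor, changed by -0.12, Rps27a, made as a fusion with ubiquitin, by 0.06, and Rpl13a, known for translational silencing in human monocytic cells, by -0.15 at P14 against P2. Rpl5 and Rpl11, which bind the p53 regulator Mdm2, changed by -0.03 and 0.17, and Rpl38, needed for axial patterning in the mouse, by 0.23. Rpl22 had 185.9 and 156.3 FPKM at P14, 144.1 and 167.4 FPKM at P7, and 171.1 and 170.2 FPKM at P2, among the narrowest ranges of the members. X-linked Rps4x, Rpl36a, Rpl39 and Rpl10 changed by -0.03, -0.11, 0.12 and -0.46. The value for Rpl10 is the third most negative of the members. The X-linked transcript Xist was not evenly spread over the stages, since it was at 74.7 FPKM in P2 replicate 2 and 61.2 FPKM in P7 replicate 1 and below 1 FPKM in the 4 others, P14 included. Y-linked Ddx3y was at 0 FPKM in P2 replicate 2 and 0.012 FPKM in P7 replicate 1, and at 13.5 to 28.4 FPKM in the 4 others. By these transcripts P2 and P7 each had 1 library of a female pattern, while both P14 libraries had a male pattern. Sex was thus not balanced over the stages, and its part in these values was not tested.

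Rpl29, a large subunit protein without which mice are small, was the member with the largest change. It had 46.0 and 53.2 FPKM at P7, against 7.85 and 8.90 FPKM at P2 (log2 change 2.43 ± 0.17 SE, limma adjusted p = 0.00347). At P14 it had 61.1 and 59.1 FPKM, a log2 change of 2.71 ± 0.17 SE against P2 (limma adjusted p = 0.000805). Both later stages lie fully above P2, and the call for P7 against P2 was lost without P7 replicate 2 (2.33, limma adjusted p = 0.0927). The pattern ran opposite to that of a copy of the gene. Gm13841, a processed pseudogene at bases 115801559 to 115802194 of chromosome 5 on GRCm38, is 99.4% identical to Rpl29 over the whole coding sequence of 480 bases. It had 2.59 and 3.47 FPKM at P7 and 5.67 and 4.78 FPKM at P14, against 75.4 and 80.8 FPKM at P2.

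Coding stretches of 3 members and of a copy of each that varied widely among the libraries are printed to show how alike they are. They are read 5′ to 3′ on the coding strand from GENCODE M21 transcripts on GRCm38, with the bases that differ in capitals. Rpl29 (chr9:106430312-106430371, plus strand) and Gm13841 (chr5:115802059-115802118, minus strand) differ at 3 bases over the coding sequence, C72A, C300T and T423C, with positions counted from the first base of the coding sequence, the member's base first and the copy's last. Rpl34 (chr3:130729055-130729114, minus strand) and Rpl34-ps1 (chr6:71124711-71124770, plus strand) differ at 2 of 353 aligned bases, T132C and C318G. Rps18 (chr17:33952221-33952280, minus strand) and Gm10260 (chr13:97760206-97760265, minus strand) differ at 4 of 456 bases, T186C, A337C, G371A and G431A.
Rpl29: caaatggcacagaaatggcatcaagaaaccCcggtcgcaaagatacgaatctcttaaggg
Gm13841: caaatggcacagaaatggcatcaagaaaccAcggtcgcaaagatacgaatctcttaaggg
Rpl34: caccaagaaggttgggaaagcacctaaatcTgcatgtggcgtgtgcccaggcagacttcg
Rpl34-ps1: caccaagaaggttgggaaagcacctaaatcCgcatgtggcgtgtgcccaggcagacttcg
Rps18: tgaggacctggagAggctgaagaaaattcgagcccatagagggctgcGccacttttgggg
Gm10260: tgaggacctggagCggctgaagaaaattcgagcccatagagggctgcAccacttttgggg

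When the FPKM of Rpl29 and its 22 copies were added, the rise was no longer called and the value turned below 0. The sum was 56.3 and 68.3 FPKM at P7, against 89.2 and 95.9 FPKM at P2 (log2 change -0.57 ± 0.19 SE, limma adjusted p = 0.131). At P14 it was 80.2 and 74.1 FPKM, a log2 change of -0.26 ± 0.19 SE against P2 (limma adjusted p = 0.353). The sum thus followed the other members, with the P7 libraries lowest. The handling of fragments that match several loci is not given in the sources used here, so the level of Rpl29 alone is uncertain, and the part of the copies in its change was not tested beyond this sum.

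Rpl34 and Rps18 had such a copy in single libraries. Rpl34-ps1 had 110.0 FPKM in P2 replicate 2 and at most 1.05 FPKM in the 5 other libraries, and Rpl34 had 162.9 FPKM in P2 replicate 1 and 105.0 FPKM in P2 replicate 2. With 5 copies summed, Rpl34 had 134.1 and 171.9 FPKM at P7, against 165.4 and 238.9 FPKM at P2, and its log2 change turned from 0.20 as deposited to -0.39 (limma adjusted p = 0.397). Gm10260, which GENCODE annotates as protein-coding, had 48.9 FPKM in P7 replicate 1 and 90.8 FPKM in P14 replicate 1 and below 1 FPKM in the 4 others. Rps18 had 177.6 and 159.3 FPKM at P14, against 93.8 and 143.8 FPKM at P7, and with its 3 copies summed it had 274.8 and 161.0 FPKM at P14, against 145.9 and 145.2 FPKM at P7. The sum closed the gap between the P7 libraries and widened that between the P14 libraries.

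**Figure D3:**
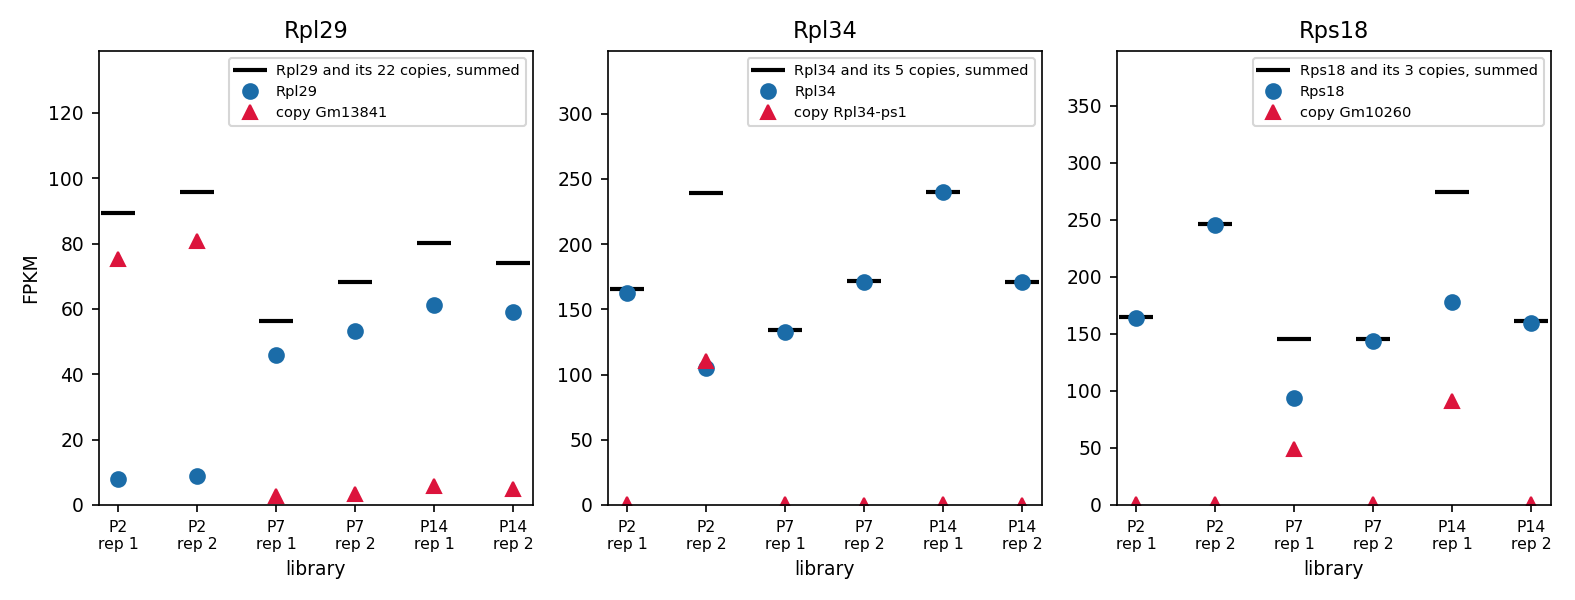
FPKM (linear axis from 0) of Rpl29, Rpl34 and Rps18 (circles), of 1 near-identical copy each (triangles), and of the member with all its copies summed (bars), in the 6 libraries. For Rpl29 the copy is high where the member is low, in both P2 libraries, at 7.85 and 8.90 FPKM beside 75.4 and 80.8 FPKM for Gm13841.

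Copies of this kind are common among ribosomal protein genes. At a coding identity of at least 95% over at least 80% of the coding sequence, 62 of the 74 members had at least 1 copy with a line of its own in the table, 363 copies in all. Of these, 22 matched at every aligned base, and 62 reached 5 FPKM in at least 1 library. Those counted include Flt3l, a protein-coding gene whose line overlaps that of Rpl13a, and BC004004, a protein-coding gene counted as a copy of Rpl21. The copies' summed FPKM was 9.9% to 11.2% of the sum of members and copies in a library, so the share was alike at all stages. The highest was Gm9846, identical to the coding sequence of Rps27 and annotated as protein-coding, with 421.5 and 355.8 FPKM at P14, 219.8 and 285.6 FPKM at P7 and 334.2 and 407.4 FPKM at P2. Rps27 itself had 259.8 and 230.0 FPKM at P14, 138.6 and 173.7 FPKM at P7 and 204.2 and 230.3 FPKM at P2, below its copy in every library. With all copies summed into their members, 0 members were called at P7 against P2 and 0 at P14 against P7, and 1, Rps16, was called lower at P14 against P2 (-1.14, limma adjusted p = 0.0238).

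Members with and without the run at the annotated start base, or a snoRNA gene, had similar median changes. At P7 against P2 the median change was -0.49 in the 13 members with a C and at least 4 pyrimidines at the start and -0.51 in the 41 without. At P14 against P7 it was 0.37 and 0.46, and at P14 against P2 it was -0.09 and -0.03. Some of the 41 have a run close by, since 27 of the 54 members had one beginning within 5 bases of the start. The split therefore does not separate members with and without a run near the start. Members with a snoRNA gene within them (27) and those without (46) both had a median of -0.50 at P7 against P2, and 0.46 and 0.52 at P14 against P7. These medians were not tested.

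Of the 4 other proteins of the cytosolic ribosome on the list, limma called none in any comparison. Among them are Rps3a1, the ubiquitin-like fusion Fau and Gnb2l1, which encodes the scaffold RACK1. The median change of the 4 was -0.53 at P7 against P2, 0.45 at P14 against P7 and -0.05 at P14 against P2. Gnb2l1 had 135.5 and 96.2 FPKM at P14, 73.9 and 83.7 FPKM at P7 and 123.8 and 155.4 FPKM at P2. Rps3a1 had 170.7 and 202.3 FPKM at P7, against 220.3 and 196.0 FPKM at P2, and these stages overlap (log2 change -0.16). Fau changed by 0.17 at P14 against P7. At P14 against P2, Rps3a1 changed by 0.20 and Fau by -0.40.

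Paralogues of ribosomal proteins were also measured, some of which can stand in for a member. At P14 against P2, 2 of 6 tested rose (11.5% of all tested genes) and 0 fell (12.9%), and limma called 0 in the other comparisons. Rpl3l, the striated muscle paralogue of Rpl3, had 102.3 and 65.6 FPKM at P14, against 2.81 and 22.5 FPKM at P2 (log2 change 3.13 ± 0.75 SE, limma adjusted p = 0.0265). The P2 libraries differ from each other, and both P7 libraries, at 29.4 and 27.7 FPKM, lie between the stages. Rps27l, a p53-responsive paralogue of Rps27, had 118.7 and 92.6 FPKM at P14, against 47.1 and 67.1 FPKM at P2 (0.89 ± 0.26 SE, limma adjusted p = 0.0470). Rpl36al had 164.5 and 123.1 FPKM at P14, against 84.2 and 103.0 FPKM at P2 (0.61 ± 0.22 SE, limma adjusted p = 0.0933). Rpl22l1, which is known to rise when Rpl22 is lost, changed by 0.56 ± 0.34 SE (limma adjusted p = 0.264), and Rpl39l had at most 1.39 FPKM.

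**Figure D4:**
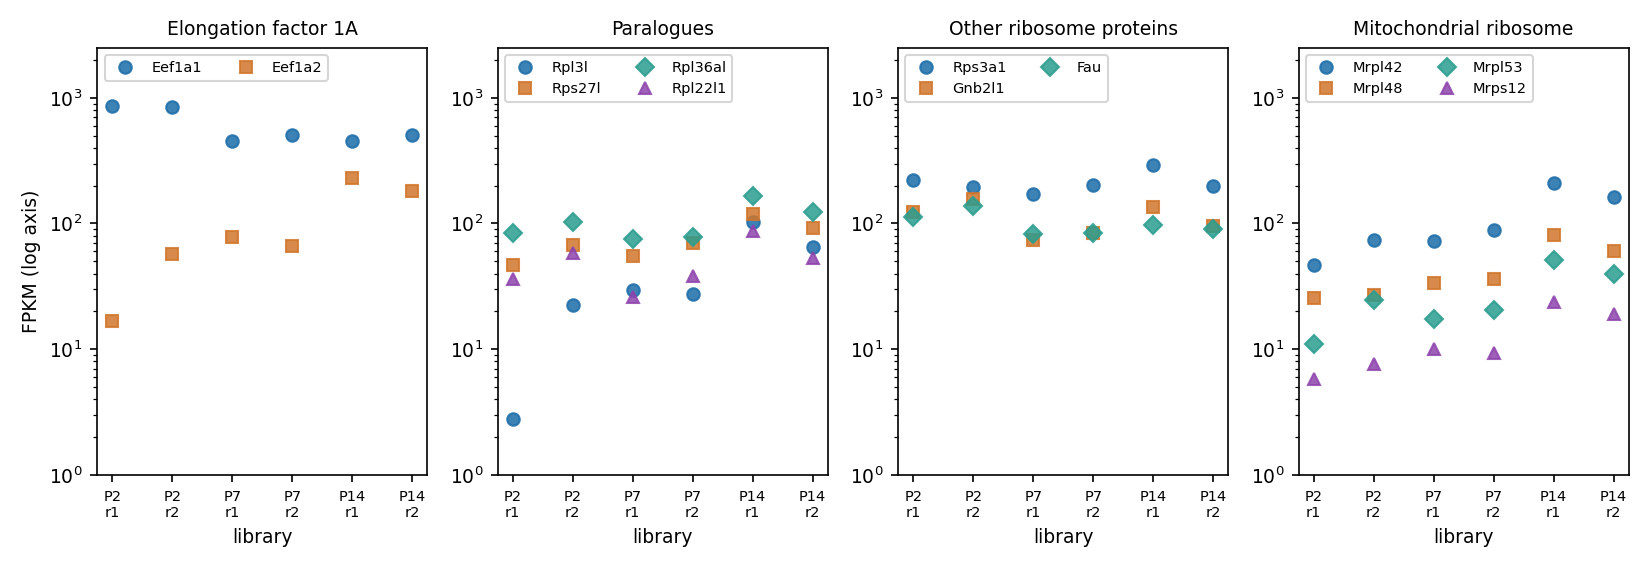
FPKM (log axis) by library of the elongation factor genes Eef1a1 and Eef1a2, of 4 ribosomal protein paralogues, of 3 further proteins of the cytosolic ribosome and of 4 mitochondrial ribosomal proteins. Eef1a2, Rpl3l and Mrpl42 are highest in the P14 libraries, while Eef1a1 is highest in the P2 libraries at 866.7 and 837.2 FPKM.

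Of the 11 genes listed under translation elongation, 2 rose and 1 fell at P14 against P2. Over all tested genes 11.5% rose and 12.9% fell. Eef1a1, the elongation factor that brings tRNA to the ribosome in most cells, had 450.2 and 509.9 FPKM at P14, against 866.7 and 837.2 FPKM at P2 (log2 change -0.83 ± 0.23 SE, limma adjusted p = 0.0405). Eef1a2, its counterpart in mature muscle and neurons, had 229.4 and 180.7 FPKM at P14, against 16.9 and 57.0 FPKM at P2 (2.67 ± 0.50 SE, limma adjusted p = 0.0132). The other called gene was Eef1e1 (0.70 ± 0.15 SE, limma adjusted p = 0.0206), and Eef1b2 changed by -0.53 (limma adjusted p = 0.0958). Eef1a1 already stood at 451.0 and 505.2 FPKM at P7, where the test against P2 gave a limma adjusted p of 0.0989.

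Calls among initiation and ribosome assembly genes at P14 were near or below the shares of all tested genes. Of 36 initiation genes, 3 were called against P2, where 11.5% of all tested genes were higher and 12.9% lower, Eif2s2 (0.78) and Eif2b4 (0.78) as higher and the poly(A) binding protein gene Pabpc1 (-0.74) as lower, while Eif4a2 (0.72) missed the threshold (limma adjusted p = 0.0521). Of 50 ribosome biogenesis genes, 4 were higher (Imp3, Pno1, Nop10 and Rrp12, by 0.85 to 0.91) and 2 lower (nucleolin, Ncl, by -0.65, and Nop58 by -0.63) against P2. At P14 against P7, where 8.75% of all tested genes were higher, 2 initiation genes and 5 biogenesis genes were called higher and 0 lower by limma. Of 14 tested genes of the RNA polymerase I machinery, which transcribes ribosomal RNA, and 17 tested mTORC1 and Myc pathway genes, 0 were called in either direction by limma, with medians of -0.14 and -0.02. In the first list Polr1d changed by 0.72, Taf1d by -0.57, Rrn3 by 0.46 and Ubtf by -0.40, and in the second Akt1s1 by 0.48, Rheb by 0.46, Eif4ebp1 by -0.39 and Mxi1 by 0.39.

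Genes of the mitochondrial ribosome, which makes proteins of the respiratory chain, were also measured. Of 76 tested, 28 were called higher against P2 (11.5% of all tested genes) and 22 against P7 (8.75%), and limma called 0 lower in either comparison. Their median change was -0.12 at P7 against P2, 0.88 at P14 against P7 and 0.73 at P14 against P2. Mrpl42 had 209.0 and 162.7 FPKM at P14, against 46.66 and 73.97 FPKM at P2 (log2 change 1.63 ± 0.28 SE, limma adjusted p = 0.00978). Mrps12 (1.54), Mrpl53 (1.40) and Mrpl48 (1.38) followed, all called. The difference from the cytosolic family, whose median was -0.02 at P14 against P2, was not tested.

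The makeup of the tissue differed between the stages beside these values. All 8 markers of proliferating cells were called lower at P14 than at P2, as were 12.9% of all tested genes. Their summed level was 24.8 to 32.5 FPKM at P14, 61.8 to 63.6 FPKM at P7 and 113 to 142 FPKM at P2. The 7 markers of neutrophils and marrow all fell too, at 2.39 to 3.48 FPKM in sum, 34.1 to 83.7 FPKM at P7 and 166 to 282 FPKM at P2, and Elane, Mpo, Camp and Ltf were listed at 0 in at least 1 library each. Of 7 erythroid markers 2 were called lower, with sums of 833 to 842 FPKM at P14 and 993 to 1940 FPKM at P2. The median log2 change of the 7 was -0.68. Of 5 skeletal muscle markers 3 were called higher at P14 than at P2 (11.5% of all tested genes). The 5 summed to 8670 to 10300 FPKM at P14 and 3470 to 4810 FPKM at P2. The tissue thus showed its labelled identity, although Ttn was listed at 0 in 1 library. Macrophage markers summed to 34.6 to 36.5 FPKM at P14, 24.4 to 26.4 FPKM at P7 and 39.8 to 56.1 FPKM at P2, and fibroblast markers to 1060 to 1200, 901 to 940 and 966 to 1650 FPKM. Both sums were lowest in the P7 libraries as deposited, as were 26.2% of all tested genes. Sums of the other marker lists were not lowest there, and no other scaling was applied to these sums. Endothelial markers summed to 93.9 to 106 FPKM at P14, 65.4 to 69.8 FPKM at P7 and 49.0 to 82.4 FPKM at P2. At P14 against P2, 1 macrophage marker was called lower and 1 endothelial marker higher. The part of these cells in the ribosomal protein levels was not tested.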

How the data were processed

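Per the labels' protocols, RNA came from Trizol extraction, and 200 ng went into a stranded library kit with ribosomal depletion. The submitters' processing notes name, without role, the tools Cuffdiff 2.2.1, Cufflinks 2.2.1, TopHat2 2.0.8, FastQC 0.10.1 and CASAVA 1.2-14 and the build GRCm38. The authors deposited FPKM per gene and library, and how they scaled the libraries is not given in the sources used here. The authors' deposited comparison tables hold a fold change between 2 stages, negative where the later stage is lower, and a p-value. The headers do not say whether the p-value is adjusted, and it was read as unadjusted.

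Values were analysed as log2(FPKM + 1) for the 13566 genes with at least 1 FPKM in at least 2 of 6 libraries. With limma 3.58.1 in R 4.3.3, stage means over the 6 libraries were compared (empirical Bayes with a variance trend, 3 residual and 3.8 prior degrees of freedom). Two-sided p-values were adjusted over the whole set of tested genes by the Benjamini-Hochberg method. A call is an adjusted p below 0.05, and SE is that of the fit. A second fit subtracted each library's median over the 74 members. The members, companion lists and marker lists were chosen with earlier results of these data known. The named members are those called, the 8 largest rises and falls of each comparison, the 5 highest and 5 lowest by mean, and a list of well-known genes. From each companion list, up to 4 genes with the largest change at P14 against P2 are named, with 8 more always given. Rps27, Ncl, Nop58 and the copies were named after their values were seen. Some genes that the rule names are not reported here. Copies were found with BLAST 2.17.0, matching coding sequences to GENCODE M21 transcripts. The fit was tested on simulated data. Alternatives were other pseudocounts, filters and scalings, protein-coding genes only, no trend, robust moderation, a fit of 4 libraries at a time, a term for the replicate number, dropping each library in turn and, chosen after seeing the data, summed copies. Python 3.11.15 with pandas 2.3.3 and matplotlib 3.10.9 was used.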

Additional observations from a re-analysis of the deposited data

How the results depend on the processing

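With 2 libraries a stage, single-gene calls were few and depended on settings, and the cause of these shifts was not tested. Over all alternatives, 190 of the counts and medians kept to the values reported and 54 moved, and single genes kept their direction and side of the threshold in 660 cases, turned stronger in 19, weaker in 19 and reversed in 21. With copies summed into each member, 0 members were called higher at P7 versus P2 and at P14 versus P2, also relative to the median member, and 0 at P14 versus P7, while the test over the 3 stages called 1. Median-of-ratios scaling gave median changes of -0.15 (P7 versus P2) and 0.18 (P14 versus P7) and 2 members lower at P14 versus P2 (15.4% of all tested genes). Quantile normalization gave medians of -0.27, -0.16 and -0.44 in the 3 comparisons. It gave 0 members higher and 1 lower at P14 versus P7 (4.07% of all tested genes lower). At P14 versus P2 it gave 37 lower (15.3% of all tested genes), and 20 were called over the stages. Scaling to protein-coding genes gave medians of -0.04 at P14 versus P7, with 0 higher, and -0.41 at P14 versus P2. In the latter 32 members were lower (36.8% of all tested genes), and 23 were called over the stages. No filter gave 0 higher at P14 versus P7, 0 lower at P14 versus P2 and 1 over the stages. Only the 4 libraries compared gave 2 higher at P14 versus P7 and 0 lower at P14 versus P2. Shares of all tested genes are not given here for the calls over the stages under these alternatives. Nor are they given for the fits without a filter or of 4 libraries.

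By the replicate numbers of the sample titles, replicate 2 minus replicate 1 correlated between stages at -0.159 to 0.0304. These correlations gave no sign of pairing by those numbers. They cannot exclude a shared batch, since each stage gives only 1 such difference. The descriptions and table columns number the libraries differently (1 and 3 at P2, 1 and 2 at P7, 2 and 3 at P14), and a block on those numbers, of which any 2 stages share 1, was not run. With the replicate block from the titles, 0 members were higher at P14 versus P7 and 1 was called over the stages.

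Leaving out each library in turn, with a lone library assumed to vary like the other stages, changed how many members were called in each comparison. Median changes ranged over -0.64 to -0.36, 0.29 to 0.67 and -0.19 to 0.18 in the 3 comparisons.

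Reversed with copies summed were Rpl29 (-0.57 at P7 versus P2, -0.26 at P14 versus P2), Rpl34 (-0.39 at P7 versus P2) and Rpl21 (0.06 at P14 versus P7). The sum for Rpl21 includes BC004004, annotated as a protein-coding gene, at 13.36 and 15.42 FPKM at P7 and 35.44 and 29.5 FPKM at P14. Its other copies were near 0, so this reversal came with the level of another annotated gene. At P14 versus P2, quantile normalization and protein-coding scaling turned Rpl26 to -0.20 and -0.14, Rps21 to -0.21 and -0.14, Rpl27 to -0.08 and -0.13, Rps25 to -0.17 and -0.09, and Rps2 to -0.08 and -0.06. With 1 library left out, Rpl34 ranged over -0.11 to 0.52 at P7 versus P2. At P14 versus P7, Rps16 ranged over -0.56 to 0.15, Rpl21 over -0.41 to 0.03 and Rpl15 over -0.24 to 0.14. At P14 versus P2, Rpl27 ranged over -0.06 to 0.57 and Rps21 over -0.02 to 0.52. FPKM keeps no depth, so no counting error could be given.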

Other observations

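Copies that varied unevenly among the libraries, beside those already described, were Gm10154 and Gm4705, copies of Rpl34, at 12.56 and 10.46 FPKM in P2 replicate 2 and at most 1.44 FPKM elsewhere. Gm12013, a copy of Rpl39, was at 10.04 FPKM in P14 replicate 1 and listed at 0 in P14 replicate 2. Gm8730, a copy of Rplp0, had 16.44 and 10.47 FPKM at P14 and at most 7.12 FPKM in the other libraries. Gm10073, a copy of Rplp1, had 17.3 FPKM in P14 replicate 1 and 2.16 FPKM in P14 replicate 2.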
